A study of Mus musculus with 6 samples.

Results

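The genes described are 39 mouse genes of central carbon metabolism, chosen by name for their place in a pathway and not by a value: 20 of glucose transport, glycolysis and the lactate step, 4 of pyruvate entry into mitochondria, 9 of the tricarboxylic acid (TCA) cycle, 4 of the pentose phosphate pathway, and the hypoxia-inducible genes Bnip3 and P4ha1. Of the 39, 35 had a probe set of their own, among 18193 such genes on the array, with 86 probe sets in all. Of these, 34 were bright enough to test, among 10916 genes. Hk2, the inducible hexokinase, was too dim, with signals from 22.2 to 70.0. The platform annotation used here lists no probe set for Gpi1, Eno1 and G6pdx, which were not analysed here, and Gapdh was read only through control probe sets and probe sets shared with pseudogenes, as a description.

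The arrays hold RNA of regulatory T cells (Tregs), which hold other immune cells in check, taken from the spleen and lymph nodes of C57Bl/6 mice aged 8 to 11 weeks that carry a FoxP3GFP reporter, and sorted for CD4, CD25 and FoxP3. All 3 groups share the reporter and were cultured for 18 h without added activation, in a medium with serum and sodium pyruvate. WT vehicle is wild type (A2AR+/+FoxP3GFP) with DMSO, KO vehicle is A2AR-/-FoxP3GFP with DMSO, and WT ATL1222 is wild type with ATL1222 at 10 nM, an agonist selective for the adenosine receptor A2AR per the labels, with 2 arrays each. The labels call the replicates biological but do not say that they came from different mice, and the p-values therefore cover the spread between arrays, which may be technical. WT ATL1222 and KO vehicle differ in both genotype and drug, and all 3 comparisons share groups.

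Glycolysis splits glucose into pyruvate, which is reduced to lactate or enters mitochondria to feed the TCA cycle, while the pentose phosphate pathway branches off to make NADPH and ribose. Activated effector T cells are known for high glycolysis, whereas Tregs are known to rely more on mitochondrial oxidation. This receptor couples to Gs proteins and raises cAMP, which activates the kinase PKA and the transcription factor CREB. Many glycolytic genes are also known targets of hypoxia-inducible factors (HIF).

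Each array had been scaled to the same trimmed mean, and array medians ran from 74.7 to 98.2. Signals are on a linear scale, and differences are given as log2 fold changes of signal + 16 with their standard error (SE) from limma. With 2 arrays a side the smallest two-sided p of an exact permutation test is 0.333, and limma borrows information on the spread across genes. The Treg gene Ikzf2 was bright on all arrays (6810 to 8431), Il2ra, which encodes CD25, was at 416.0 to 613.1, and the Foxp3 probe set was dim at 7.18 to 53.5. Of 21 markers of other cell types 5 were above the limit for dim genes and 0 passed the test. The summed signal of the 3 CD8 T and NK markers with a probe set was 320.9 and 351.9 in KO vehicle, above 237.7 and 218.8 in WT vehicle and 224.9 and 228.5 in WT ATL1222, and its part in the results below was not tested. In bulk samples fewer cells of a type and less RNA per cell cannot be told apart. The ratio of 3' to 5' signal of Gapdh ran from 1.21 to 1.45 and was lowest on WT ATL1222 replicate 1. That of Actb ran from 1.93 on WT ATL1222 replicate 1 to 2.53 on WT ATL1222 replicate 2, with the other arrays between them.

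Promoter windows were searched on both strands for 4 motifs: ACGTG, known as the core bound by HIF, its variant GCGTG, the E box CACGTG, and the core of the CREB site, TGACG. Windows of 300 bases, 250 before and 50 after a start, were given for 37 of the 39 genes, 56 windows in all. At least one of ACGTG and the variant GCGTG was in 46 of the 56 windows (82.1%), against 43.8% of all 32851 windows. CACGTG, which holds ACGTG on both strands, was in 7 (12.5%, against 7.15%), TGACG in 17 (30.4%, against 20.8%), and TGACG followed by TCA in 5 (8.93%, against 1.79%). Windows of 1 gene can overlap, as for the 6 of Ogdh, so they are not independent. The windows with TGACG followed by TCA were of Ogdh, Ldha and Mdh2 only, and those of Ogdh overlap each other. Several of the TGACG windows were also of Ogdh. These shares of windows are therefore not shares of genes. All 4 motifs hold the bases CG, and the windows were not matched for base content. Whether the higher shares are particular to these motifs was not tested. The 4 windows below were chosen after the values were seen, for WT ATL1222 against KO vehicle. Got1 was the one gene of these pathways that passed the test and Aldoa passed with the replicate block only. Ldha and Eno3 had the smallest unadjusted p of the members, with estimates of opposite sign, and passed in neither fit. Capitals mark ACGTG, its variant GCGTG, and the CREB core TGACG on either strand, in RefSeq sequence of build GRCm38.p6, written 5′ to 3′ along the gene.
Got1 promoter, chr19:43524556-43524855, minus strand: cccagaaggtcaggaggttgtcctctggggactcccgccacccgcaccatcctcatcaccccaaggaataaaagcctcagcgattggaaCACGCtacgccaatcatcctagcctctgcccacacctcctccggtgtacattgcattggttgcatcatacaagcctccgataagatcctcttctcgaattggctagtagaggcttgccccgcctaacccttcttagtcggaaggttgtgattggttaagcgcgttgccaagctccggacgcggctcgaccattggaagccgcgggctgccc
Aldoa promoter, chr7:126799129-126799428, minus strand: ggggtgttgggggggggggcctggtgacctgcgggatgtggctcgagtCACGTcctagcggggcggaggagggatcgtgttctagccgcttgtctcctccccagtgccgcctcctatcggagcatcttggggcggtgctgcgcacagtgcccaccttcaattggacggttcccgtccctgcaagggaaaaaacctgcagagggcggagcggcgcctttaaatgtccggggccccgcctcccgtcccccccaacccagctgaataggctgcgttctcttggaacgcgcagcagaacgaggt
Ldha promoter, chr7:46845554-46845853, plus strand: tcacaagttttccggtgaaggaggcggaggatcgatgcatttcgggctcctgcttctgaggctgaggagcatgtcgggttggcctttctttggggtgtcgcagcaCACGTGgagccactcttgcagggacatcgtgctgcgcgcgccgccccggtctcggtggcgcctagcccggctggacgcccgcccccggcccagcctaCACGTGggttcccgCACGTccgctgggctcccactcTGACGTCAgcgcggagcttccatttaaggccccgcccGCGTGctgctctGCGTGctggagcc
Eno3 promoter, chr11:70656926-70657225, plus strand: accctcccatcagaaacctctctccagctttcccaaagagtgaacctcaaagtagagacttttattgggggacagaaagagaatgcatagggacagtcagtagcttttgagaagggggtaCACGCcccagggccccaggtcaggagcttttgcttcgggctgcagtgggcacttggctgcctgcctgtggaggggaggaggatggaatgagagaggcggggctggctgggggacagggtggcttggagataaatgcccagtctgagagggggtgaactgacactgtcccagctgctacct
The Ldha window, one of 2 for the gene, held 5 matches to ACGTG, 4 of them from its 2 CACGTG boxes, and 2 matches to GCGTG. It also held TGACG followed by TCA, which begins 12 bases before the start and reads as TGACG on both strands. The Aldoa window, one of 3, held 1 ACGTG, and the Got1 and Eno3 windows each held 1 GCGTG and no TGACG. A match is a description of the letters and not of binding.

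Loss of the receptor was compared with WT vehicle first. No member passed the limma test in KO vehicle against WT vehicle, and the point estimates were small: they ran from -0.30 for Tpi1, triose phosphate isomerase, to 0.45 for Idh2, the mitochondrial NADP-dependent isocitrate dehydrogenase. In these data 0.0275% of all genes tested passed at an adjusted p of 0.05. With the replicate number as a block 0 members passed, against 0.0824% of all genes. At an unadjusted p of 0.05 there were 2 members, Taldo1 and Eno3, or 5.88%, against 3.89% of all genes. The 95% interval of all 34 members lay within a log2 change of 1 in either direction, which held for 75.1% of all genes tested, so a change of 2-fold lay outside each gene's own interval. Both KO arrays were above both WT vehicle arrays for 8 members, against 15.9% of all genes, and below them for 4, against 13.7%. The median of the 34 was -0.04, beside 0.00 over all genes. Of the 16 tested genes from glucose transport to lactate 12 had negative estimates, beside 49.1% of all genes. Their median was -0.10, with -0.01 without WT vehicle replicate 1, -0.20 without WT vehicle replicate 2, -0.06 without KO vehicle replicate 1 and -0.04 without probe sets that may cross-hybridise.

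The agonist was compared with vehicle in wild-type cells. No member passed in WT ATL1222 against WT vehicle, where 0.211% of all genes did, nor with the replicate block, where 0.724% did. Estimates ran from -0.33 for Pdk1, the kinase that inhibits pyruvate dehydrogenase, to 0.42 for Pgam1, phosphoglycerate mutase, with a median of -0.00 beside -0.01 over all genes. Only Taldo1 had an unadjusted p under 0.05, against 5.03% of all genes. The 95% intervals of all 34 members lay within a log2 change of 1, as did those of 74.3% of all genes. Of the 34 members, both agonist arrays lay above both vehicle arrays for 5 members, against 14.5% of all genes, and below for 5, against 16.3%, so both shares were close to the background.

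Agonist-treated wild-type cells were last compared with KO vehicle, the comparison with the most calls over all genes. No member passed, where 0.999% of all genes did. With the replicate block 1 member passed, Aldoa, which encodes the main glycolytic aldolase, where 2.42% of all genes did. At an unadjusted p of 0.05 there were 8 members (23.5%), against 8.48% of all genes: Slc2a1, Aldoa, Tpi1, Pgam1, Pkm and Ldha had positive estimates, and Eno3 and Idh2 negative ones. Of these 8, all but Idh2 lie on the path from glucose uptake to lactate. On that path 10 of the 16 tested genes had positive and 6 negative estimates, where 46.6% of all genes had positive ones. The median of the 16 was 0.10, with 0.17 between the replicate 1 arrays and 0.17 between the replicate 2 arrays. Over all genes the medians between the replicate 1 and replicate 2 arrays were -0.04 and 0.00. The median was -0.18 for pyruvate entry, -0.09 for the TCA cycle and -0.16 for the pentose phosphate pathway, and -0.06 over all 34, beside -0.02 over all genes. The 2 agonist arrays lay above both KO arrays for 8 members (23.5%), against 17.4% of all genes, and below for 8 (23.5%), against 20.9%. The 95% intervals lay within a log2 change of 1 for 31 of the 34. The exceptions were Aldoa, up to 1.03, Aldoc, down to -1.05, and Idh2, down to -1.17.

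**Figure D1:**
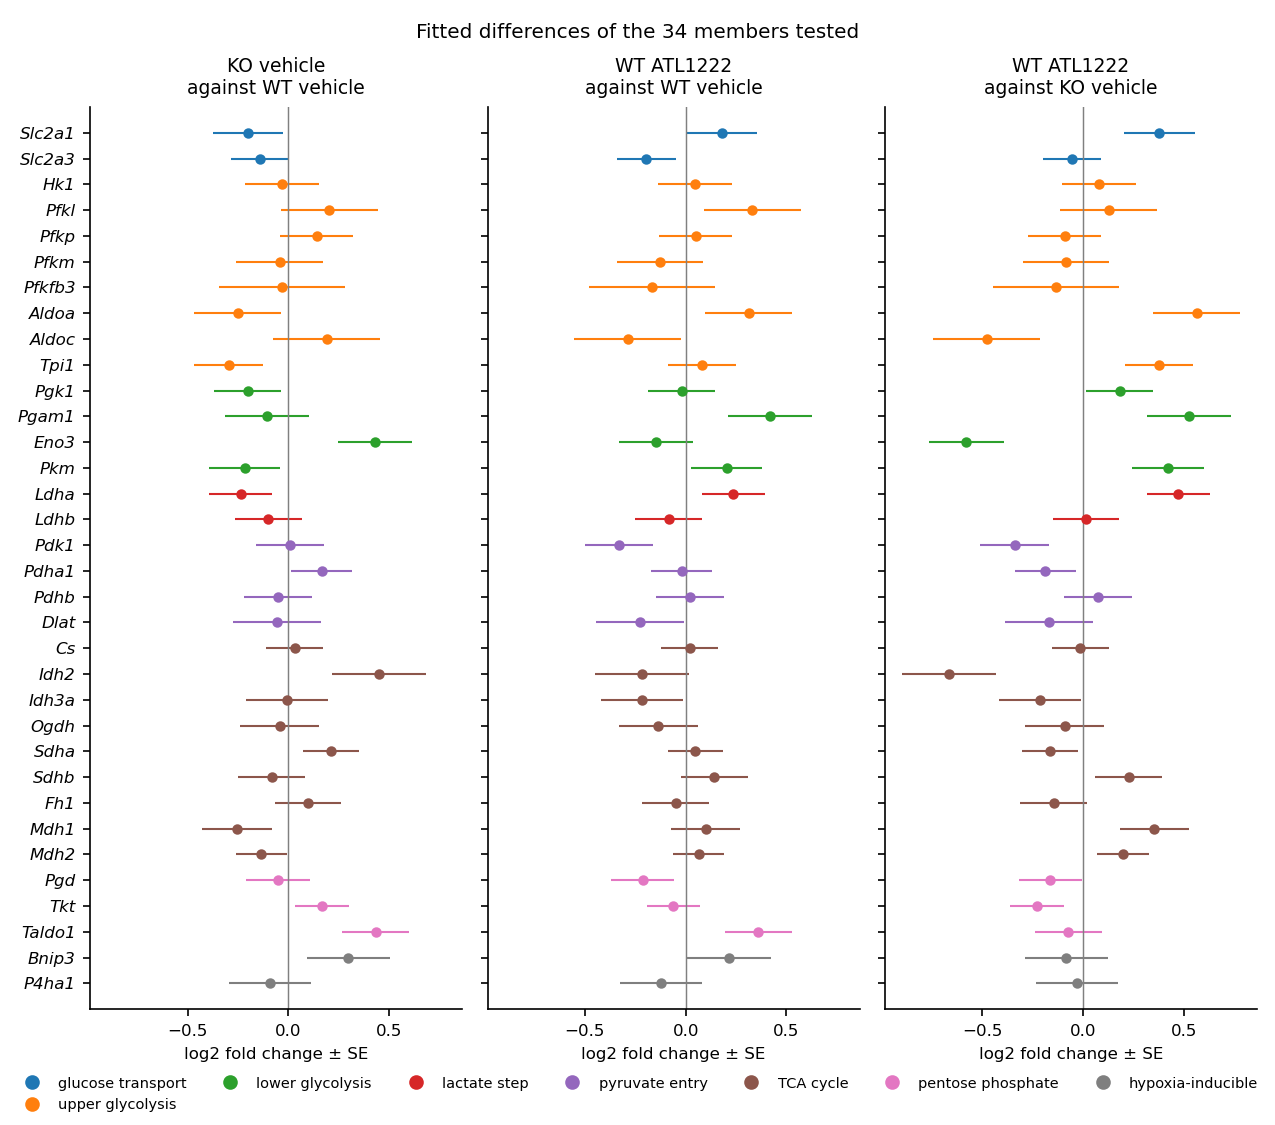
Fitted log2 fold changes of the 34 members tested, in the 3 comparisons, as points with bars of 1 SE, coloured by pathway step (2 arrays a group, limma on log2 of signal + 16). Estimates run from -0.30 to 0.45, from -0.33 to 0.42 and from -0.67 to 0.56 from left to right, and Aldoa is the one member that passed the test, in the right panel with the replicate block only.

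Glucose enters T cells through the transporters Slc2a1 (GLUT1) and Slc2a3 (GLUT3). Slc2a1 had signals of 754.7 and 728.3 in WT vehicle, 566.7 and 730.1 in KO vehicle, and 834.4 and 847.9 in WT ATL1222. Both agonist arrays were the highest of the 6, and WT and KO vehicle overlapped. The log2 fold change was 0.38 ± 0.18 in WT ATL1222 against KO vehicle (limma adjusted p = 0.584) and 0.18 ± 0.18 against WT vehicle (adjusted p = 0.998). Slc2a3 ran from 2456 to 3255 with overlapping groups and a log2 fold change of -0.19 ± 0.14 in WT ATL1222 against WT vehicle. The constitutive hexokinase Hk1, which phosphorylates glucose, ran from 737.0 to 1014 with all groups overlapping.

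Of the phosphofructokinase genes, which encode the enzyme that commits sugar to glycolysis, Pfkl had signals of 193.1 and 218.9 in WT vehicle, 220.6 and 258.8 in KO vehicle, and 269.0 and 256.2 in WT ATL1222. Both agonist arrays exceeded both WT vehicle arrays, but the log2 fold change of 0.33 ± 0.24 had an adjusted p of 0.998. Pfkp (703.9 to 937.7) and Pfkfb3 (121.6 to 232.1), whose product makes the activator fructose 2,6-bisphosphate, overlapped between the groups in all 3 comparisons. For Pfkfb3 the agonist arrays were the highest and the lowest of the 6, at 232.1 and 121.6.

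Aldoa had signals of 5641 and 3777 in WT vehicle, 4671 and 3219 in KO vehicle, and 6804 and 4842 in WT ATL1222. Replicate 1 was brighter than replicate 2 in each group, and within each replicate number the order was WT ATL1222, WT vehicle, KO vehicle. The log2 fold change in WT ATL1222 against KO vehicle was 0.56, with 0.54 between the replicate 1 arrays and 0.59 between the replicate 2 arrays. Its SE was 0.215 (limma adjusted p = 0.413), and 0.0918 with the replicate block (adjusted p = 0.00366). The difference from WT vehicle was 0.31 ± 0.22 (adjusted p = 0.998, with the block 0.240). Leaving out 1 array moved these values: against KO vehicle to 0.30 without KO vehicle replicate 2, 0.83 without KO vehicle replicate 1, 0.32 without WT ATL1222 replicate 1 and 0.81 without WT ATL1222 replicate 2. Against WT vehicle they ran from 0.03 without WT vehicle replicate 2 to 0.60 without WT vehicle replicate 1. Replicate 1 was the brighter array for 26, 20 and 23 of the 34 members in WT vehicle, KO vehicle and WT ATL1222, and for 56.6%, 57.2% and 51.6% of all genes tested. Tpi1 had signals of 1052 and 856.5 in WT vehicle, 834.0 and 710.9 in KO vehicle, and 996.3 and 1014 in WT ATL1222. Both KO arrays were the lowest of the 6. The log2 fold change was 0.38 ± 0.17 in WT ATL1222 against KO vehicle (adjusted p = 0.556) and -0.30 ± 0.17 in KO vehicle against WT vehicle (adjusted p = 1.00).

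Gapdh, which oxidises glyceraldehyde 3-phosphate, was not tested. Its 3' control probe set had signals of 6365 and 6038 in WT vehicle, 6243 and 5280 in KO vehicle, and 7532 and 6447 in WT ATL1222, so both agonist arrays were the highest. The difference of group means between WT ATL1222 and KO vehicle was 0.28, 0.29 and 0.26 on the log2 scale at the 3', 5' and middle control probe sets, and 0.17, 0.26 and 0.25 against WT vehicle. At the 5' control probe set the agonist and KO arrays overlapped. Of 3 probe sets shared with pseudogenes, the bright one gave a difference of 0.19 in WT ATL1222 against KO vehicle, with overlapping arrays. A second ran from 96.7 to 231.8, with the agonist arrays inside the range of the KO arrays, and the third was below the limit for dim genes, at 18.2 to 65.2 on all 6 arrays.

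Pgam1 had signals of 538.6 and 549.4 in WT vehicle, 491.1 and 516.4 in KO vehicle, and 909.4 and 587.9 in WT ATL1222. Both agonist arrays were the highest, and replicate 1 stood far above replicate 2. Pgam1 differed by 0.42 ± 0.21 on the log2 scale against WT vehicle (adjusted p = 0.998) and 0.52 ± 0.21 against KO vehicle (adjusted p = 0.436), and without WT ATL1222 replicate 1 these were 0.11 and 0.22. Eno3, the muscle-type enolase, ran the other way, with 470.9 and 533.9 in WT vehicle, 667.5 and 694.9 in KO vehicle, and 415.5 and 489.4 in WT ATL1222. Both KO arrays were the highest, and the 4 wild-type arrays overlapped whether treated or not. On the log2 scale Eno3 differed by 0.43 ± 0.18 in KO vehicle against WT vehicle (unadjusted p = 0.0350, limma adjusted p = 1.00) and -0.58 ± 0.18 in WT ATL1222 against KO vehicle (adjusted p = 0.258, with the block 0.0768).

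Pkm, the pyruvate kinase gene of T cells, had signals of 1424 and 1078 in WT vehicle, 1062 and 1065 in KO vehicle, and 1620 and 1262 in WT ATL1222. The KO arrays were the lowest, and the treated and untreated wild-type arrays overlapped. In WT ATL1222 against KO vehicle the log2 fold change was 0.42 ± 0.18 (adjusted p = 0.497). Ldha, whose subunit favours the reduction of pyruvate to lactate, had 5612 and 4164 in WT vehicle, 4167 and 4034 in KO vehicle, and 5213 and 6231 in WT ATL1222. The agonist and KO arrays did not overlap, while WT vehicle overlapped the agonist arrays and, at its lower array, the KO arrays. Ldha had a log2 fold change of 0.47 ± 0.16 in WT ATL1222 against KO vehicle (adjusted p = 0.277), 0.24 ± 0.16 in WT ATL1222 against WT vehicle (adjusted p = 0.998) and -0.24 ± 0.16 in KO vehicle against WT vehicle (adjusted p = 1.00). Ldhb, whose subunit favours the opposite reaction, ran from 798.5 to 970.2, and its log2 fold change in WT ATL1222 against KO vehicle was 0.02 ± 0.17.

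**Figure D2:**
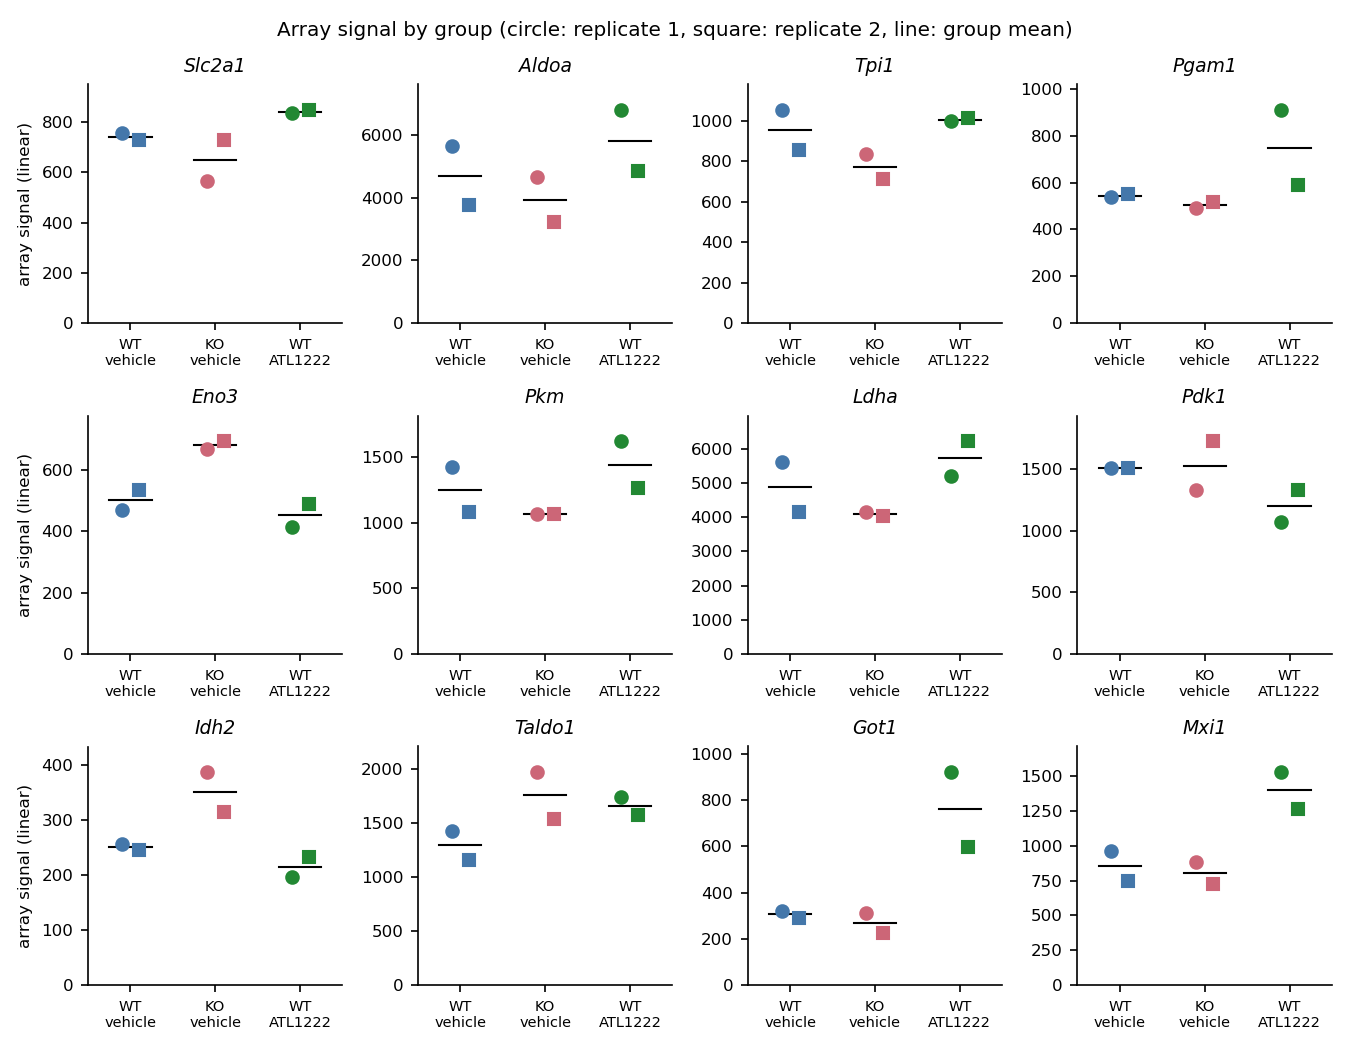
Array signal (linear scale from 0) of 10 members and of Got1 and Mxi1 in the 3 groups, with a circle for replicate 1, a square for replicate 2 and a line at the group mean. Got1 has the largest ratio of group means among the genes shown, with 921.9 and 598.4 in WT ATL1222 against 224.2 to 321.9 on the other 4 arrays, whereas the Aldoa groups overlap between WT vehicle and each of the others.

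Of the genes of pyruvate entry, Pdk1 had signals of 1509 and 1508 in WT vehicle, 1329 and 1730 in KO vehicle, and 1072 and 1332 in WT ATL1222. Both agonist arrays were below both WT vehicle arrays, and 1 of them was level with the lower KO array. The log2 fold change was -0.33 ± 0.17 against WT vehicle (limma adjusted p = 0.998) and -0.34 ± 0.17 against KO vehicle (adjusted p = 0.636). The pyruvate dehydrogenase subunit genes Pdha1, Pdhb and Dlat had estimates from -0.23 to 0.17 over the 3 comparisons, on the brightest probe set of each. In WT ATL1222 against WT vehicle that of Dlat gave -0.23 ± 0.22, and 2 further ones gave 0.14 ± 0.34 and 0.48 ± 0.30. The second probe set of Pdha1 gave 0.51 ± 0.25 in KO vehicle against WT vehicle.

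In the TCA cycle Idh2 had signals of 256.2 and 246.2 in WT vehicle, 387.1 and 314.4 in KO vehicle, and 197.2 and 232.5 in WT ATL1222. The groups did not overlap in any comparison, with KO highest and the agonist lowest. Idh2 had a log2 fold change of -0.67 ± 0.23 in WT ATL1222 against KO vehicle (adjusted p = 0.331), 0.45 ± 0.23 in KO vehicle against WT vehicle (adjusted p = 1.00) and -0.22 ± 0.23 in WT ATL1222 against WT vehicle (adjusted p = 0.998). Cs, citrate synthase at the entry of the cycle, ran from 1811 to 2060 on all 6 arrays, and its 3 estimates lay between -0.01 and 0.03. Ogdh, a subunit of the 2-oxoglutarate dehydrogenase complex, ran from 480.8 to 684.0, and Idh3a, a subunit of the NAD-dependent isocitrate dehydrogenase, from 396.8 to 570.6, both with overlapping groups. The succinate dehydrogenase, fumarase and malate dehydrogenase genes Sdha, Sdhb, Fh1, Mdh1 and Mdh2 had estimates from -0.25 to 0.35, with none past the test.

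Of the pentose phosphate genes, Taldo1, transaldolase of the non-oxidative branch, had signals of 1423 and 1161 in WT vehicle, 1971 and 1538 in KO vehicle, and 1738 and 1575 in WT ATL1222. WT vehicle was the lowest group, and KO vehicle and WT ATL1222 overlapped. Taldo1 had a log2 fold change of 0.43 ± 0.17 in KO vehicle against WT vehicle (unadjusted p = 0.0211, adjusted p = 1.00) and 0.36 ± 0.17 in WT ATL1222 against WT vehicle (unadjusted p = 0.0487, adjusted p = 0.987). Both rest on the same 2 WT vehicle arrays. Tkt, transketolase of the same branch, had 6319 and 5373 in WT vehicle, 6874 and 6222 in KO vehicle, and 5445 and 5733 in WT ATL1222. Its log2 fold change was -0.23 ± 0.13 in WT ATL1222 against KO vehicle (adjusted p = 0.736), where the groups did not overlap. Pgd, which makes NADPH in the oxidative branch, was at 874.7 and 972.9 in WT ATL1222, below the other 4 arrays, with a log2 fold change of -0.21 ± 0.16 against WT vehicle (adjusted p = 0.998). In the same comparison 1 of its 4 probe sets above the limit for dim genes went the other way, at 0.16 ± 0.17. The hypoxia-inducible gene Bnip3, a mitophagy receptor, was at 332.7 and 352.0 in WT vehicle, below the other 4 arrays at 370.6 to 474.8, with a log2 fold change of 0.30 ± 0.21 in KO vehicle against WT vehicle (adjusted p = 1.00). P4ha1, a prolyl hydroxylase subunit of collagen synthesis, overlapped in all comparisons.

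A second reading of these values came from the other probe sets of a gene, since 21 members had at least 2 above the limit for dim genes. All probe sets of a member had the same sign for 13 of the 21 in WT ATL1222 against KO vehicle, 15 of 21 against WT vehicle and 10 of 21 in KO vehicle against WT vehicle. In WT ATL1222 against KO vehicle the 4 probe sets of Pdk1 ran from -0.79 to -0.27, the 3 of Tpi1 from 0.35 to 0.54 and the 3 of Slc2a1 from 0.08 to 0.52. The 4 of Ldhb ran from -0.22 to 0.09 there, and from -0.47 to -0.08 in WT ATL1222 against WT vehicle. For Slc2a3 the 2 probe sets were at -0.24 and -0.06 against KO vehicle, and at -0.30 and -0.19 against WT vehicle. Both have names that mark possible cross-hybridisation. Of the 5 probe sets of Aldoa 4 ran from 0.40 to 0.62 and the fifth was at -0.01, and all 5 have names that mark possible cross-hybridisation. The second probe set of Idh2, dimmer than the first, was at -0.11 ± 0.41, so the value of Idh2 rests on 1 probe set. The 4 probe sets of Mdh1, the cytosolic malate dehydrogenase, differed in sign. That on which it was tested gave 0.35, further ones 0.54 ± 0.13 (limma adjusted p = 0.195 over all probe sets) and 0.48 ± 0.18, and the dimmest -0.20 ± 0.27. In WT ATL1222 against WT vehicle the same 4 gave 0.10 ± 0.18, 0.64 ± 0.13 (adjusted p = 0.235), 0.35 ± 0.18 and -0.01 ± 0.27. None of the probe sets of a member passed when every probe set was tested.

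**Figure D3:**
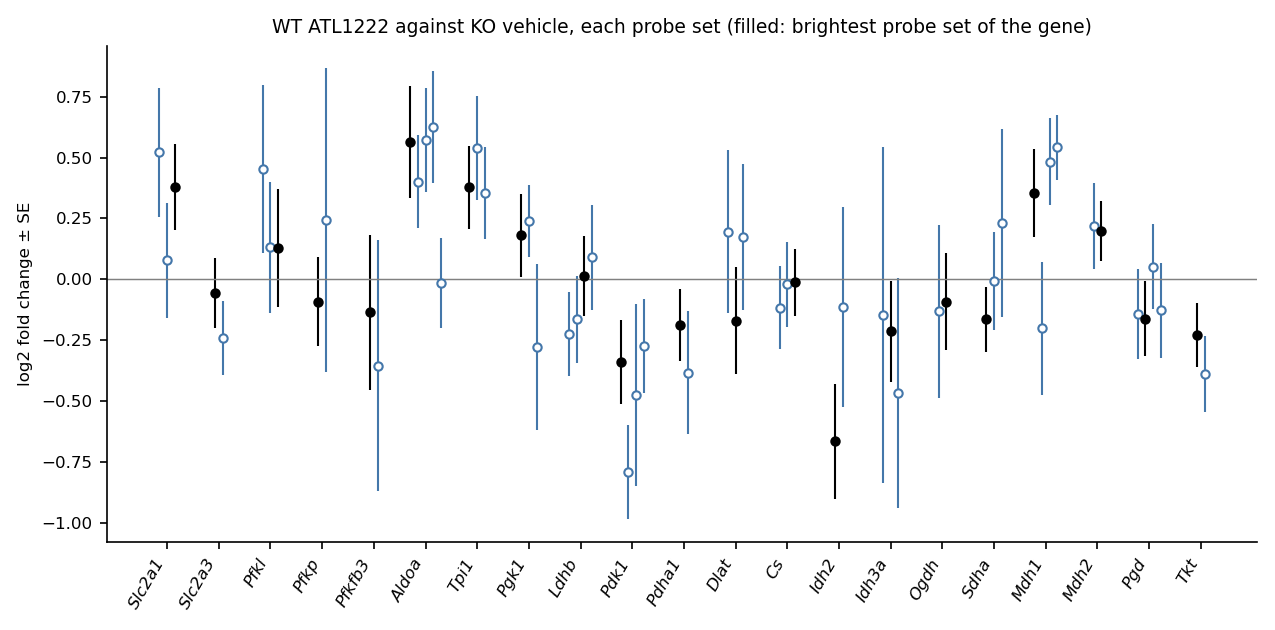
Log2 fold changes (± 1 SE) in WT ATL1222 against KO vehicle for each probe set of the 21 members with at least 2 above the limit, filled for the brightest, on which the gene was tested. The Pdk1 probe sets all lie below 0 and the Tpi1 probe sets all above, while 1 of the Aldoa and 1 of the Mdh1 probe sets go against the rest.

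Among 59 further genes of the same pathways, taken as a wider list, 42 were tested. In WT ATL1222 against KO vehicle 1 of the 42 passed, where 0.999% of all genes did. With the replicate block the same 1 passed, where 2.42% of all genes did. It was Got1, the cytosolic aspartate aminotransferase of the malate-aspartate shuttle, which carries reducing equivalents into mitochondria with Mdh1. Got1 had signals of 321.9 and 292.2 in WT vehicle, 312.8 and 224.2 in KO vehicle, and 921.9 and 598.4 in WT ATL1222. The agonist arrays stood far above the other 4. Got1 rose in WT ATL1222 against KO vehicle, with a log2 fold change of 1.43 ± 0.24 (limma adjusted p = 0.00853, with the block 6.18e-04). Against WT vehicle it was 1.23 ± 0.24 (adjusted p = 0.0658), and it passed with the replicate block (adjusted p = 0.00517), where 0.724% of all genes did. There it also passed in some but not most of the other settings. In KO vehicle against WT vehicle it was -0.20 ± 0.24 (adjusted p = 1.00). In WT ATL1222 against KO vehicle the call was lost without KO vehicle replicate 2 (log2 1.21, adjusted p = 0.0749), without WT ATL1222 replicate 1 (1.13, 0.183) and with no variance trend (adjusted p = 0.247). Got2, the mitochondrial counterpart of Got1, ran from 1110 to 1513 with overlapping groups. No other gene of the 42 passed in any comparison in either fit, and the median of the 42 was 0.03, -0.06 and -0.07 in the 3 comparisons. Slc16a3, a lactate exporter, had a log2 fold change of 1.11 ± 0.45 in WT ATL1222 against KO vehicle (adjusted p = 0.469) at low signals of 37.1 to 195.6, and was named after its values were seen.

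**Figure D4:**
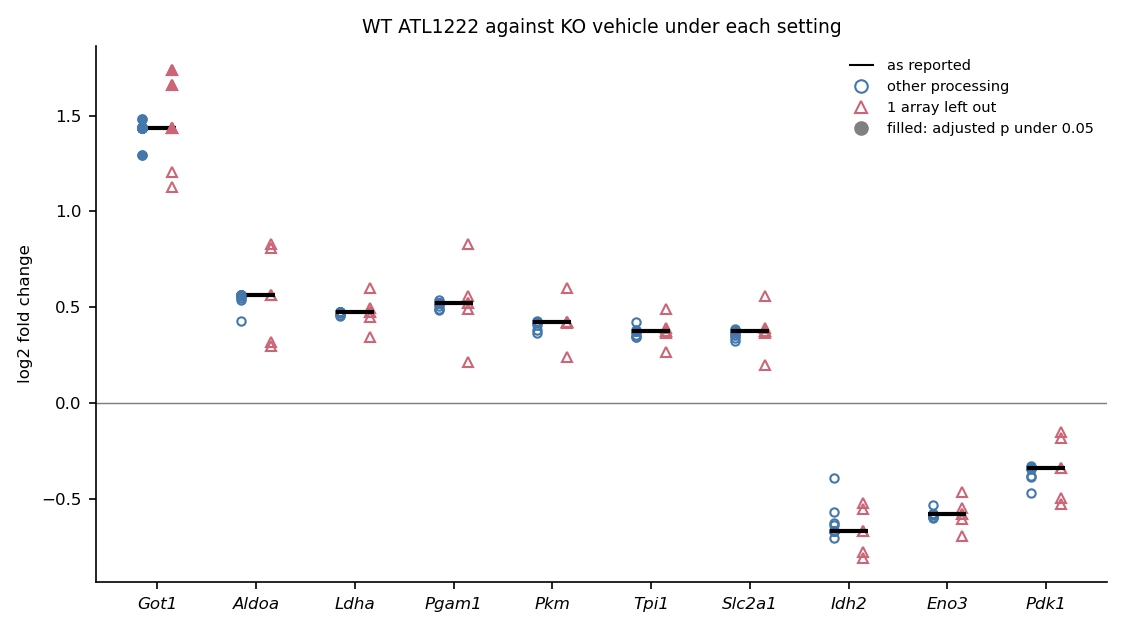
Log2 fold change in WT ATL1222 against KO vehicle of Got1 and 9 members as reported (bar), under other processing (circles) and with 1 array left out (triangles), filled where the adjusted p was under 0.05. Got1 stays between 1.13 and 1.74, and each of the 9 members keeps its sign.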

How the data were processed

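Expression was measured on 6 Affymetrix 3' arrays, 2 per group. The deposited values are intensities on a linear scale, made by the authors with GCOS per the submitters' processing notes. Of the algorithm and version, the sources used here say nothing. Each array has a mean of 250.0 with 2% of probe sets trimmed at each end, and this scaling was kept. Replicates were not pooled, and the table holds no detection calls.

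Probe sets were named through the platform annotation and Entrez identifiers: of 45101 probe sets, 64 controls were left out, 34945 had 1 gene, 932 several and 9160 none listed. Each gene was read from its brightest probe set as log2(signal + 16), which understates changes of dim genes. The lowest 40% of genes, below a signal of about 71.2, were left out. Linear models over all 6 arrays were fitted by limma 3.58.1 (R 4.3.3), the prior variance following a trend, with Benjamini-Hochberg adjustment over 10916 genes at 0.05. The code was tested on simulated data. Tables were made with Python 3.11.15 and pandas 2.3.3. Precision is limited by having 2 arrays a group: the median SE was 0.174 for the members and 0.231 for all genes.

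The main fit held the group only and did not pair the arrays. Values given with the replicate block come from an alternative fit that treats the replicate numbers as pairing the samples. It was made since differences of replicate 1 from replicate 2 correlated across 10916 genes between every pair of groups (r = 0.230, 0.230 and 0.147). Genes are not independent replicates, and the labels do not say what a number shares. The named members were those passing in either fit, the smallest p of each step and comparison, 20 control-point genes and those whose probe sets disagreed. Genes of other lists were named if they passed in either fit, and their alternatives were added after seeing the data. The members and lists were chosen with earlier results of these data known. The promoter sequences are RefSeq's, matched by symbol. The receptor gene is not reported here.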

Additional observations from a re-analysis of the deposited data

How the results depend on the processing

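The fits were repeated under 12 other settings and with each of the 6 arrays left out. No member passed in any of them in KO vehicle against WT vehicle or WT ATL1222 against WT vehicle. In WT ATL1222 against KO vehicle 1 member, Aldoa, passed with the replicate block and 0 under the other settings, so leaving out an array gave 0 to 0 in each comparison. The block changed no other call on a member. Without probe sets that may cross-hybridise Aldoa and Slc2a3 had no value. Without 1 array the median of the members ran from -0.13 to 0.05 in KO vehicle against WT vehicle, from -0.07 to 0.06 in WT ATL1222 against WT vehicle and from -0.0700 to 0.0198 in WT ATL1222 against KO vehicle, where it turned positive without WT ATL1222 replicate 2. It was -0.0252 there with every probe set tested separately. The median from glucose transport to lactate stayed positive in WT ATL1222 against KO vehicle in the 18 alternatives, from 0.02 to 0.19. It was lowest with probe sets averaged, where 8 of the 16 genes had positive estimates. The block, no variance trend, only the 4 arrays compared and leaving out a WT vehicle array could not alter this median, so those alternatives do not test it. Of 1341 values of named members under an alternative, 132 moved by more than the spread between replicates and 1 gained a call. The estimate changed sign in 59 of the 1341 values, 42 of these with 1 array left out. None was past the test, and each had a reported size of at most 0.25. Many of the 1341 could not change, since the block, the variance trend and arrays outside a comparison do not alter its fold change. Aldoa in KO vehicle against WT vehicle reached 0.04 and Pfkfb3 in WT ATL1222 against KO vehicle 0.29. Mdh1 and Tpi1 in WT ATL1222 against WT vehicle reached -0.12 and -0.07. The cause of these sign changes was not tested. Over all genes the 3, 23 and 109 calls of the 3 comparisons became 9, 79 and 264 with the block, 0, 0 and 5 with no variance trend, 0, 3 and 44 with probe sets averaged and 0, 13 and 63 with every probe set tested. Without a filter on dim genes they were 3, 14 and 70, with the lowest 60% left out 3, 36 and 129, with cyclic loess 3, 35 and 126, and with only the 4 arrays compared 3, 44 and 140. Leaving out 1 array gave 3 to 7, 5 to 39 and 42 to 133.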

Other observations

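Genes outside glycolysis that HIF is known to induce were examined as a further list, of which 11 of 15 were tested. Mxi1, an antagonist of Myc, had signals of 965.0 and 748.4 in WT vehicle, 880.6 and 723.1 in KO vehicle, and 1530 and 1267 in WT ATL1222. WT ATL1222 lay above the other 4 arrays. Its log2 fold change was 0.70 ± 0.18 against WT vehicle (limma adjusted p = 0.262, with the replicate block 0.0147) and 0.79 ± 0.18 against KO vehicle (adjusted p = 0.0620, with the block 0.00242). Ddit4, an inhibitor of mTORC1 signalling, was at 1377 and 1399 in WT ATL1222 and at 886.4 to 1236 on the other 4 arrays, with a log2 fold change of 0.51 ± 0.16 against KO vehicle (adjusted p = 0.249, with the block 0.0488). Neither gene passed in the main fit. Ddit4 passed with the block only, whereas Mxi1 against KO vehicle also passed in some but not most of the other settings. With the block 0.724% of all genes passed against WT vehicle and 2.42% against KO vehicle. The median of the 11 was 0.11 against WT vehicle and 0.19 against KO vehicle, beside -0.01 and -0.02 over all genes. Estimates of the 11 ran from -0.49 to 0.70 against WT vehicle and from -0.74 to 0.99 against KO vehicle, with 3 negative in each. The 4 not tested, Vegfa, P4ha2 and Adm among them, were too dim or had no probe set listed.

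Of 9 tested genes of T cell activation and growth 1 passed, with the block only, where 2.42% of all genes passed: Slc3a2, the heavy chain of the CD98 amino acid transporters, at 0.62 ± 0.23 in WT ATL1222 against KO vehicle (limma adjusted p = 0.394, with the block 0.0328). Without 1 array it ran from 0.34, without KO vehicle replicate 2, to 0.89, without KO vehicle replicate 1, and was 0.40 without WT ATL1222 replicate 1. Among 7 tested Treg genes, 2 passed in the same comparison, where 0.999% of all genes did. Tnfrsf18, which encodes GITR, rose by 1.11 ± 0.17 (limma adjusted p = 0.00326) and Ctla4 by 0.75 ± 0.16 (adjusted p = 0.0370). Nrp1 was at -0.40 ± 0.14 (adjusted p = 0.369, with the block 0.0332). Tnfrsf18 against WT vehicle passed with the block only, where 0.724% of all genes did, at 0.65 ± 0.17 (adjusted p = 0.249, with the block 0.00359). Without WT ATL1222 replicate 1 the adjusted p of Tnfrsf18 against KO vehicle was 0.0638, and that of Ctla4 was 0.170 and 0.0775 without KO vehicle replicate 1 or 2 and 0.391 and 0.101 without WT ATL1222 replicate 1 or 2. Both calls were lost with no variance trend (adjusted p = 0.287 and 0.456), and that of Ctla4 also with every probe set tested (0.112), probe sets averaged (0.126) and no filter on dim genes (0.0920).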
